A study of Homo sapiens with 6 samples.

Results

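The messages of 36 genes that repair broken and crosslinked DNA were followed in HCT116, a human colorectal carcinoma cell line, in a study of resistance to the drug 5-fluorouracil (5-FU). The genes were taken by symbol from a list of homologous recombination, Fanconi anaemia and checkpoint genes. The rule held no measured value, but the list was chosen with earlier results of these data known. All 36 of 36 were found among the 19942 gene symbols of the RNA-seq tables. Of the 36 genes, 33 were at 1 FPKM or more in every library, FPKM being fragments scaled to transcript length and to the size of the library. FANCB, RAD51D and FANCM dipped below that level in at least 1 library, and all 36 genes passed the filter of the tests (1 FPKM or more in at least 3 of the 6 libraries).

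There were 6 libraries, 1 in each of 6 groups. HCT116 cells labelled wild-type, called parental here, and HCT116 cells labelled 5-FU resistant were each sequenced without transfection, with a control siRNA and with an siRNA against EHMT2, the histone methyltransferase G9a that places methyl groups on lysine 9 of histone H3. Whether 5-FU was present at harvest, how the resistant cells were selected, whether they are a clone, and the siRNA sequences and times are not stated in the labels. With 1 library per group no pair of groups has a replicate check. The differences between pairs of libraries are therefore given as values, and tests come only from models that combine the 6 or the 4 siRNA libraries.

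EHMT2 itself was the check on the siRNA labels. It was at 31.7 FPKM with control siRNA and 8.58 with EHMT2 siRNA in parental cells, and at 19.5 and 3.80 in resistant cells. The level was lower with EHMT2 siRNA in both lines. The untransfected libraries were at 19.8 (parental) and 27.3 (resistant), so the order of the lines in EHMT2 level differed between untransfected and control siRNA cells. Summed FPKM ran from 360695 to 446143 per library, and read depth is unknown. Of 9 colorectal epithelial markers 6 were at 1 FPKM or more in every library, while VIL1 and CDX1 were listed at 0 and KRT20 stayed below 1 throughout. Defining markers of leukocytes (PTPRC and CD3E), endothelium (PECAM1, VWF, CDH5) and fibroblasts (COL1A2, COL3A1, PDGFRB, DCN, LUM) were listed at 0 in all 6 libraries. Of the other markers of these cells, COL1A1 (fibroblast) was at 3.35 to 9.79 FPKM and CD68 (leukocyte) at 0.37 to 4.99, while LYZ, ITGAM and KDR stayed below 1. The untransfected resistant library stood apart on chromosome 18, where all 41 measured genes of the short arm were higher than in untransfected parental cells (median log2 ratio 1.60). With control siRNA that median was 0.15, with 27 of 40 genes above 0. Its library name also differs in form from those of the other resistant libraries, and the labels do not say whether it holds the same cells, so ratios that use it compare that library.

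Homologous recombination repairs a broken chromosome by copying the sister molecule: the ends are trimmed to single strands, BRCA1, PALB2 and BRCA2 prepare them for strand exchange, and they invade the intact copy. The Fanconi anaemia pathway deals with strands that are covalently crosslinked. Its core complex attaches ubiquitin to the FANCD2 and FANCI pair, which calls in nucleases that unhook the lesion, and recombination restores the resulting break. ATM and ATR are the kinases that signal breaks and stalled forks, and many genes of these pathways are transcribed mainly while cells prepare for and pass through DNA replication.

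Promoter sequences are shown for 6 genes among those with the lowest or highest response to EHMT2 siRNA, so that the letters can be read beside the values. They are the 250 bases before the RefSeq start of each gene (GRCh38.p14), written 5′ to 3′ on the strand of the gene. Capitals mark words of the E2F site (TTTCCCGC, TTTCGCGC, TTTGCCGC or TTTGGCGC), the cell cycle homology region or CHR (TTTGAA) and the CCAAT box (CCAAT), each searched on both strands. FANCG lies on the minus strand at chr9:35079943-35080192, FANCD2 on the plus strand at chr3:10026187-10026436 and BARD1 on the minus strand at chr2:214809684-214809933. RBBP8 lies on the plus strand at chr18:22933078-22933327, FANCC on the minus strand at chr9:95317710-95317959 and ATR on the minus strand at chr3:142578734-142578983.
FANCG: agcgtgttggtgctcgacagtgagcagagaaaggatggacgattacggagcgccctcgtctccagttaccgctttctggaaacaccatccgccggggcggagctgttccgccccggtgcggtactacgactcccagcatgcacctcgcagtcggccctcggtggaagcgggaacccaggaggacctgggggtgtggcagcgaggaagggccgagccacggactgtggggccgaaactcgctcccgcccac
FANCD2: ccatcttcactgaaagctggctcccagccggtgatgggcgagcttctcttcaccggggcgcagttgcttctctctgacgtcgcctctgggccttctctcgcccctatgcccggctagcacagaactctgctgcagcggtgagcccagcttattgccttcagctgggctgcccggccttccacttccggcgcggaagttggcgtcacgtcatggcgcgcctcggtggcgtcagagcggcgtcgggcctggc
BARD1: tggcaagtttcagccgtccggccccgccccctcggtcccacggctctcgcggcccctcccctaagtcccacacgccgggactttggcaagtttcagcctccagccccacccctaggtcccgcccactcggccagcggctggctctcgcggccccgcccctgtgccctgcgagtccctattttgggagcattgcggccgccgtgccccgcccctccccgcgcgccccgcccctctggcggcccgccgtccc
RBBP8: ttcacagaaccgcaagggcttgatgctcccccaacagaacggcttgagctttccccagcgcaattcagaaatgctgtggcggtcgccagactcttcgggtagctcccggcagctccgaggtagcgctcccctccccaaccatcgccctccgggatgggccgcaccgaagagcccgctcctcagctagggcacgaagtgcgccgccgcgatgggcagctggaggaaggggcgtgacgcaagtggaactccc
FANCC: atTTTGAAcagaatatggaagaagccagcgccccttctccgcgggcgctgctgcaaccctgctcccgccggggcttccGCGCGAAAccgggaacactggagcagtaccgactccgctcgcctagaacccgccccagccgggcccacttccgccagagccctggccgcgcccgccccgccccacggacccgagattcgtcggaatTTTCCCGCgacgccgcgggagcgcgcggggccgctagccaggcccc
ATR: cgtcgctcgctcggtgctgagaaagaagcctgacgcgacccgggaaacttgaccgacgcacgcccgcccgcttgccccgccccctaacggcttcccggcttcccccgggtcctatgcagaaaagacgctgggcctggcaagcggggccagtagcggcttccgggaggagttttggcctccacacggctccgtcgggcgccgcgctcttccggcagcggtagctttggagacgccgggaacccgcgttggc

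FANCG, FANCD2, BARD1 and RBBP8 were the lowest of these with EHMT2 siRNA, and their printed stretches hold none of the 3 kinds of word. FANCC, which was higher with EHMT2 siRNA in both lines, holds a pair of E2F words, with first bases at -172 and -46 from the start, and a CHR word at -248. Windows that add the 50 bases after the start were present for 32 of the 36 genes. An E2F word stood in 5 of these 32 windows (15.6%), against 3.33% of 27305 RefSeq windows and 5.61% of the 9131 windows of genes tested here. The 5 genes were XRCC2, FANCA, FANCC, FANCD2 and TOPBP1, and in FANCD2 and TOPBP1 the word crosses the start. A CHR word stood in 3 of 32 windows (9.38%, against 15.4% of all windows and 9.06% of those of tested genes), those of BRIP1, FANCC and ATM. A CCAAT word stood in 14 of 32 (43.8%, against 35.7% of all windows and 36.6% of those of tested genes), and XRCC3 held 5 of them. A match is only a match of letters, and the lack of one says no more than that these letters are not in the window.

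**Figure D1:**
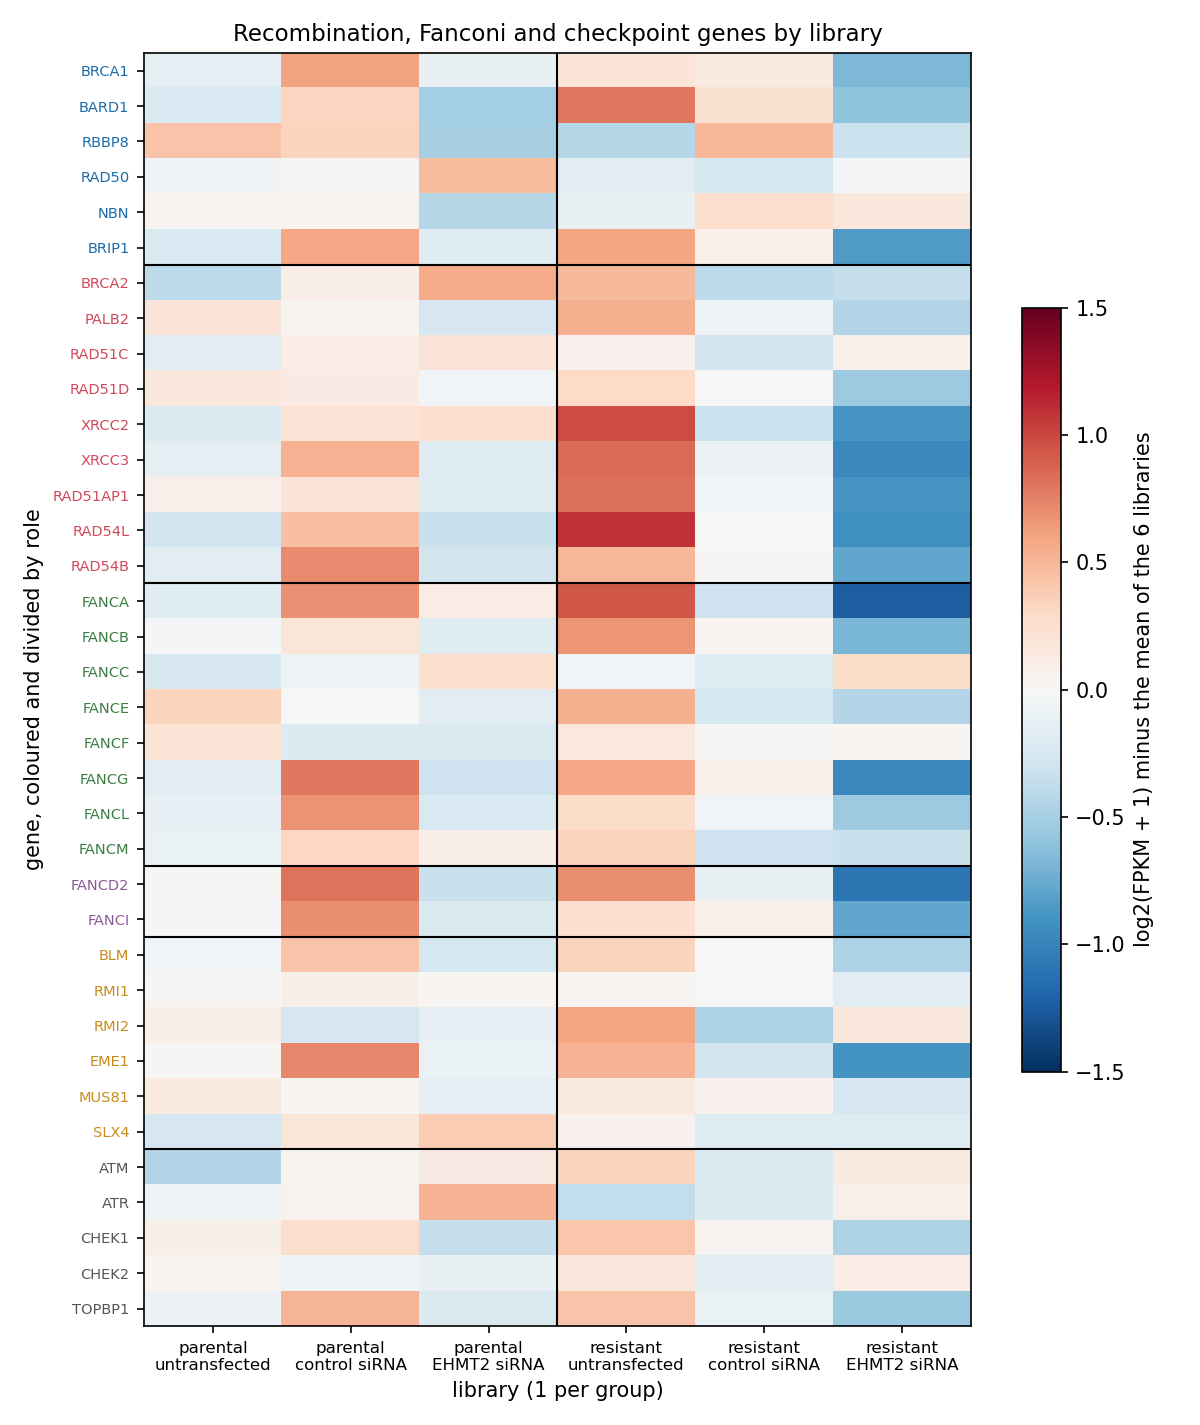
Level of each of the 36 genes in the 6 libraries, as log2(FPKM + 1) minus the mean of that gene over the libraries, with genes ordered by role. Resistant cells with EHMT2 siRNA held the lowest value of 24 genes, and untransfected resistant cells the highest value of 16. With libraries scaled to the same sum these were 22 and 18. The share of all genes was not counted.

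The 36 genes together were highest in parental cells with control siRNA, at a summed 353.5 FPKM, and in untransfected resistant cells, at 350.1. They summed to 269.2 in untransfected parental cells, 266.4 in resistant cells with control siRNA, 253.2 in parental cells with EHMT2 siRNA and 204.5 in resistant cells with EHMT2 siRNA. By gene, 16 of 36 peaked in untransfected resistant cells and 10 in parental cells with control siRNA. The lowest value of 24 genes was in resistant cells with EHMT2 siRNA. With libraries scaled to the same sum these counts were 18, 9 and 22. The share of all genes with their highest or lowest value in these libraries was not counted. The higher line by this sum was the resistant one without transfection and the parental one under either siRNA. With libraries scaled to the same sum, untransfected resistant cells came first at 362.0, with 350.2 in parental cells with control siRNA. Untransfected parental cells were then at 234.7, below parental cells with EHMT2 siRNA at 273.1. The higher line under each treatment stayed the same. In bulk libraries, fewer cells that express a gene and less of its RNA per cell cannot be told apart.

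Among the genes that start repair at the break ends, the BRCA1 and BARD1 partners were both lower with EHMT2 siRNA than with control siRNA in each line. BRCA1, the ubiquitin ligase that promotes resection, was at 5.35 FPKM untransfected, 9.59 with control siRNA and 5.47 with EHMT2 siRNA in parental cells, and at 6.96, 6.67 and 3.39 in resistant cells. BARD1, its obligate partner, was at 1.77, 3.04 and 1.28 in parental cells and 4.59, 2.80 and 1.14 in resistant cells. Both genes were lowest with EHMT2 siRNA in resistant cells, and the ratio of BRCA1 to BARD1 ran from 1.52 in untransfected resistant cells to 4.28 in parental cells with EHMT2 siRNA. BRCA1 lies at chr17:43044295-43170245 and BARD1 at chr2:214725646-214809711 (GRCh38, GENCODE 29, as are the gene positions that follow).

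RBBP8 encodes CtIP, which starts the trimming of break ends with the MRE11 nuclease. It was at 31.4, 29.4 and 16.2 FPKM in parental cells (untransfected, control siRNA, EHMT2 siRNA, the order used from here on) and at 16.9, 33.0 and 18.3 in resistant cells. The 2 EHMT2 siRNA libraries and the untransfected resistant library were the low ones, and the other 3 were all at 29.4 or more. RBBP8 was the 1 gene of the 36 lower by 1.5-fold or more in untransfected resistant against parental cells (log2 ratio -0.86). It lies on the long arm of chromosome 18 at chr18:22798261-23026488, where the 10 nearest measured genes had log2 ratios from -1.03 to 2.08 in the same pair, with a median of 0.17.

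RAD50, the arm of the MRE11 complex that tethers ends, was not among the lower genes. It was at 12.2, 12.9 and 17.9 FPKM in parental cells and 11.2, 10.4 and 12.5 in resistant cells. Its level was highest with EHMT2 siRNA in each line. Its exons share 79.7% of their bases with other annotated genes, chiefly AC116366.3 on the same strand, so its counts are uncertain. NBN, the third protein of that complex, was at 17.7, 17.9 and 12.6 in parental cells and 15.9, 20.9 and 19.5 in resistant cells, and was the 1 gene of the group at least 1.5-fold higher in resistant cells under EHMT2 siRNA (log2 ratio 0.60), though not with libraries scaled to the same sum. BRIP1, a helicase that binds BRCA1, was at 2.76, 5.57 and 2.87 in parental cells and 5.64, 3.63 and 1.44 in resistant cells.

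The genes of strand exchange divided. BRCA2, which acts on the trimmed single strands, was at 1.20, 2.11 and 3.27 FPKM in parental cells and 3.06, 1.21 and 1.27 in resistant cells. Its highest values were those of parental cells with EHMT2 siRNA and untransfected resistant cells. Its ratio of EHMT2 siRNA to control siRNA was not below 1 in either line. PALB2, the bridge between BRCA1 and BRCA2, was at 5.08, 4.45 and 3.44 in parental cells and 6.66, 4.07 and 2.91 in resistant cells, in the same order of treatments in both lines.

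RAD51C, RAD51D, XRCC2 and XRCC3 act together in complexes at the single strands, and they differed from each other. RAD51C was at 22.7, 27.9 and 29.5 FPKM in parental cells and 27.0, 21.0 and 27.1 in resistant cells, a span of 1.40-fold. XRCC2 was at 2.61, 3.80 and 3.97 in parental cells and 7.20, 2.33 and 1.25 in resistant cells, a span of 5.73-fold with both ends in the resistant line. XRCC3 was at 3.60, 6.28 and 3.42 in parental cells and 8.13, 3.74 and 1.59 in resistant cells. The untransfected resistant library was the highest of the 6 for XRCC2 and XRCC3, and resistant cells with EHMT2 siRNA the lowest. XRCC3 shares 76.7% of its exonic bases with KLC1 on the opposite strand, and its value is uncertain because the labels do not say whether counting used strand. RAD51D lay between 0.44 and 1.59 FPKM in all libraries.

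The motor proteins and the accessory factor of strand exchange were all lower with EHMT2 siRNA. RAD54L, a motor protein that promotes strand invasion, was at 4.09, 7.50 and 3.94 FPKM in parental cells and 12.2, 5.24 and 2.29 in resistant cells. RAD54B, its relative, was at 3.29, 6.92 and 2.99 in parental cells and 5.86, 3.88 and 1.82 in resistant cells. RAD51AP1, which helps to capture the partner strand, was at 6.66, 7.27 and 5.37 in parental cells and 11.9, 6.06 and 2.92 in resistant cells. In each of these genes the EHMT2 siRNA library was the lowest of its line. RAD54B shares 59.1% of its exonic bases with FSBP on the same strand, and RAD54L 25.1% with LRRC41 on the opposite strand.

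Within the Fanconi core complex, FANCA and FANCG had the highest FPKM of the 8 genes in untransfected resistant cells. FANCA, the subunit most often mutated in Fanconi anaemia, was at 11.6, 21.9 and 14.4 FPKM in parental cells and 26.4, 10.6 and 5.08 in resistant cells. FANCG, which binds FANCA, was at 10.3, 21.1 and 9.30 in parental cells and 18.0, 12.4 and 5.50 in resistant cells. FANCL, the ubiquitin ligase of the complex, was at 8.91, 16.2 and 8.23 in parental cells and 12.1, 9.54 and 6.42 in resistant cells. All 3 were higher with control siRNA than untransfected in parental cells and lower in resistant cells. FANCA lies at chr16:89737549-89816657 and FANCG at chr9:35073835-35080016. FANCA shares 23.6% of its exonic bases with ZNF276 on the opposite strand.

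The other core genes were lower in level or steadier. FANCC was at 3.71, 4.26 and 5.67 FPKM in parental cells and 4.41, 3.86 and 5.69 in resistant cells, so both EHMT2 siRNA libraries were above the other 4. FANCB was at 0.96, 1.25 and 0.75 in parental cells and 2.15, 1.03 and 0.23 in resistant cells, near the filter, and its span of 9.29-fold was the widest of the 36 genes. FANCE (2.73 to 6.29 FPKM), FANCF (1.39 to 2.2) and FANCM (0.89 to 2.04), the anchor that brings the complex to DNA, each had ratios within 1.5-fold with EHMT2 siRNA in both lines.

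FANCD2 and FANCI, the pair that receives ubiquitin from the core complex, had the same order of libraries at both ends. FANCD2 was at 7.12, 13.1 and 5.38 FPKM in parental cells and 12.0, 6.45 and 2.75 in resistant cells. FANCI was at 14.6, 24.6 and 12.6 in parental cells and 17.7, 15.7 and 8.22 in resistant cells. For both genes the control siRNA library of parental cells was the highest of the 6 and the EHMT2 siRNA library of resistant cells the lowest. FANCI exceeded FANCD2 in each library, by 1.48-fold to 2.99-fold. FANCD2 lies at chr3:10026414-10101930 and FANCI at chr15:89243949-89317261.

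**Figure D2:**
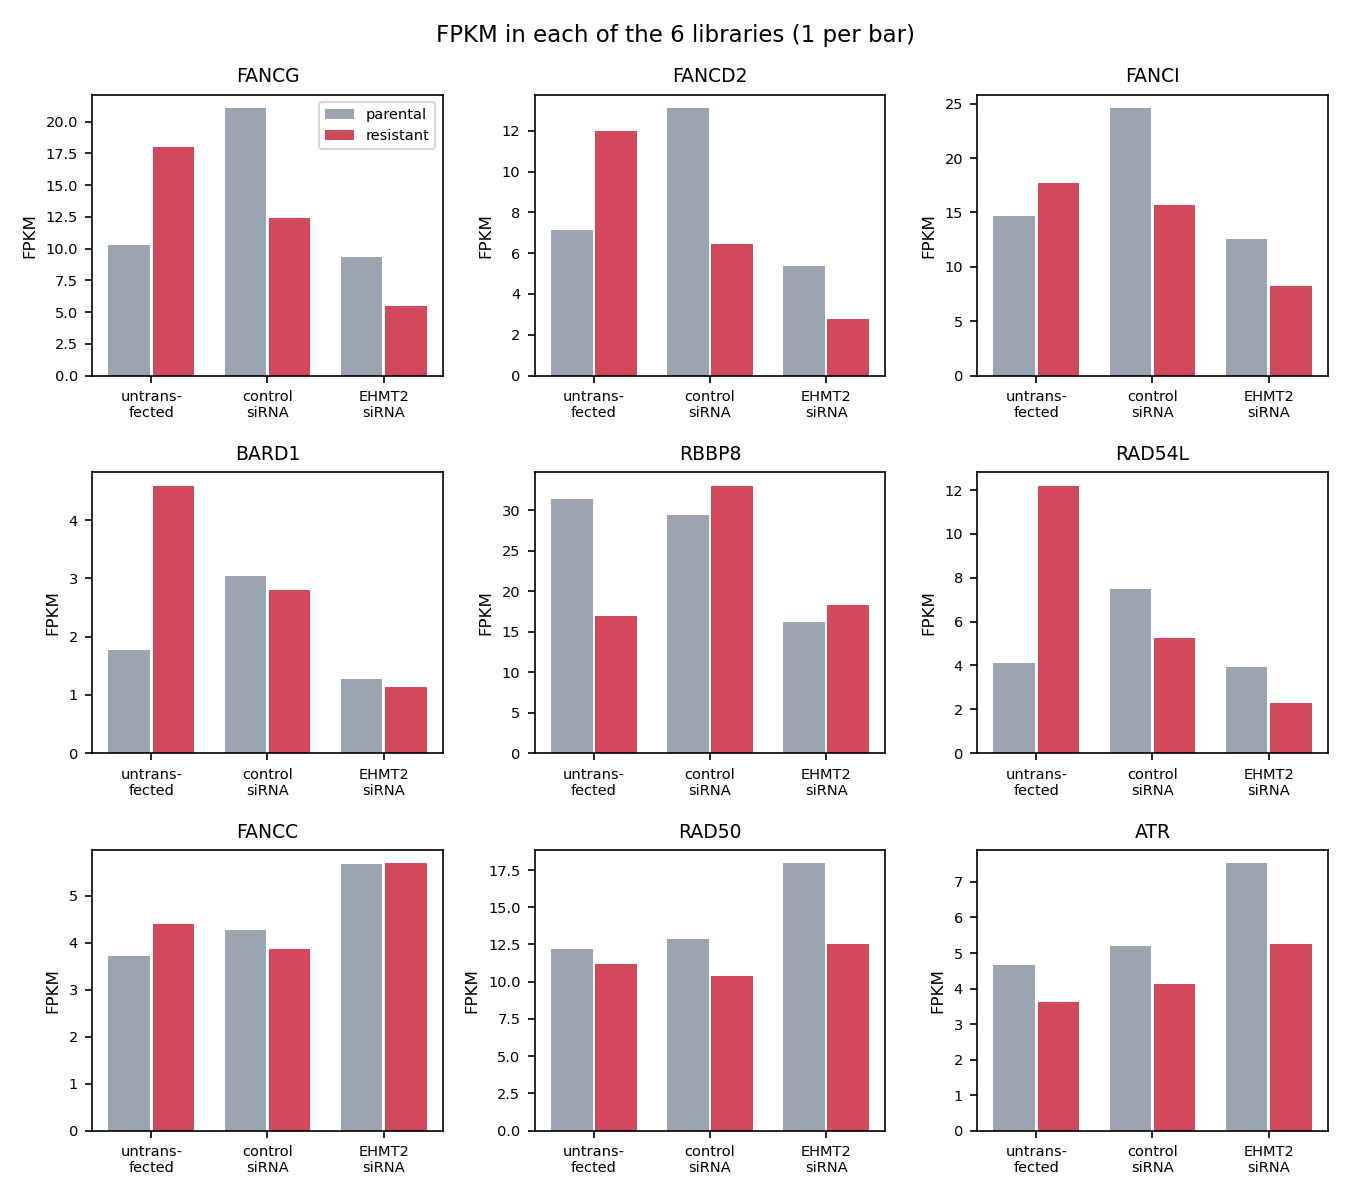
FPKM (bar height, from 0) of 9 genes in the 6 libraries, parental in grey and resistant in red, 1 library per bar and so no error bar. FANCG, FANCD2, FANCI, BARD1, RBBP8 and RAD54L are lower with EHMT2 siRNA than with control siRNA in both lines, and FANCC, RAD50 and ATR are higher.

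Genes that resolve joined DNA molecules showed a wide split. EME1, the partner of the MUS81 nuclease, was at 9.51, 16.2 and 8.74 FPKM in parental cells and 13.9, 7.61 and 4.61 in resistant cells, whereas MUS81 stayed between 8.94 and 12.1. The ratio of MUS81 to EME1 therefore ran from 0.68 in parental cells with control siRNA to 1.94 in resistant cells with EHMT2 siRNA. BLM, the helicase that dissolves crossed junctions, was at 4.07, 6.05 and 3.34 in parental cells and 5.57, 4.25 and 2.80 in resistant cells. RMI1, which binds BLM, varied by 1.22-fold over the 6 libraries, the narrowest span of the 36 genes. RMI2 was at 6.09, 4.63 and 5.13 in parental cells and 9.12, 3.81 and 6.54 in resistant cells, and was the 1 gene of the group higher by 1.5-fold or more with EHMT2 siRNA in resistant cells (log2 ratio 0.65). SLX4, a scaffold for nucleases, was at 1.83, 2.83 and 3.39 in parental cells and 2.52, 1.93 and 1.94 in resistant cells.

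Of the checkpoint genes, the kinase CHEK1 and the ATR activator TOPBP1 differed from the apical kinases. CHEK1 was at 12.9, 14.7 and 9.20 FPKM in parental cells and 16.4, 12.4 and 8.46 in resistant cells, and both EHMT2 siRNA values were below the other 4. TOPBP1 was at 10.1, 15.8 and 9.12 in parental cells and 14.8, 10.0 and 7.01 in resistant cells. ATR was at 4.66, 5.19 and 7.53 in parental cells and 3.62, 4.12 and 5.25 in resistant cells, and was highest with EHMT2 siRNA in each line. ATM was at 2.87, 4.42 and 4.74 in parental cells and 5.63, 3.56 and 4.75 in resistant cells. CHEK2, the kinase below ATM, stayed between 9.03 and 11.5.

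The first comparison asked what followed the loss of EHMT2 message. In parental cells the median log2 ratio of the 36 genes, on log2(FPKM + 1) and EHMT2 siRNA over control siRNA, was -0.37, against 0.09 over all genes at 1 FPKM or more. In resistant cells it was -0.51 over the 35 genes measured there, against 0.06. At least 1.5-fold lower were 15 of 36 genes in parental cells (12.8% of all genes) and 14 of 35 in resistant cells (13.4% of all genes). None was that much higher in parental cells, against 20.2% of all genes, and RMI2 alone was in resistant cells, against 16.2% of all genes. The parental ratios start from a control siRNA library that stood above the untransfected one. There the 36 genes summed to 269.2 FPKM untransfected, 353.5 with control siRNA and 253.2 with EHMT2 siRNA. In resistant cells the sums were 350.1, 266.4 and 204.5 in that order. With libraries scaled to the same sum, the parental sums were 234.7, 350.2 and 273.1, so EHMT2 siRNA then lay above untransfected. The resistant sums were then 362.0, 267.6 and 214.5. Among genes at 5 FPKM or more the median was -0.70 in parental cells (25 genes) and stayed at -0.51 in resistant cells (21 genes).

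The lists of the 2 lines shared 11 genes. BRCA1, BARD1, RBBP8, BRIP1, XRCC3, RAD54L, RAD54B, FANCG, FANCD2, FANCI and EME1 were lower by 1.5-fold or more in both, 11 of 35 genes measured in both pairs, against 8.93% of all genes. None was higher by that much in both, against 12.0%. Ratios were below 0 in both lines for 24 of 35 genes (36.3% of all genes) and above 0 in both for 8 (46.2% of all genes). Those 8 were RAD50, BRCA2, RAD51C, FANCC, RMI2, SLX4, ATM and ATR. The lowest ratios were those of FANCG (-1.10 parental, -1.05 resistant) and FANCD2 (-1.14 and -0.99). FPKM of FANCG with EHMT2 siRNA was 0.442 times that of control siRNA in both lines. The highest ratio common to both was that of FANCC (0.34 and 0.46). Each pair has its own control library, so the 2 lines share none.

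**Figure D3:**
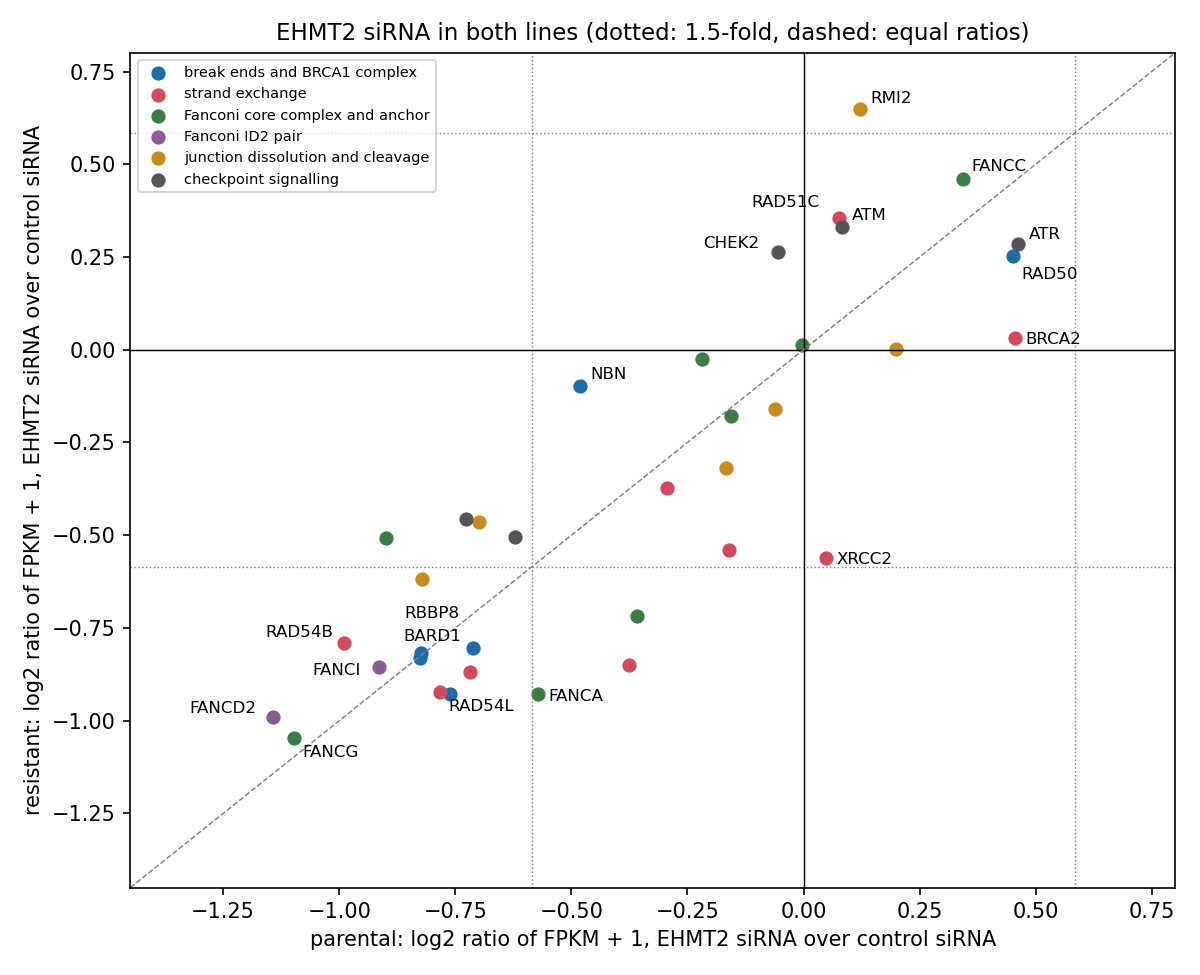
Log2 ratio of FPKM + 1, EHMT2 siRNA over control siRNA, in parental (x axis) and resistant (y axis) cells, 1 point per gene, coloured by role. The lower left holds 11 genes past 1.5-fold in both lines, and no gene is past 1.5-fold upward in both.

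The test over all 6 libraries, limma with line and treatment as additive terms, called no gene of the 36 for EHMT2 siRNA at an adjusted p of 0.05. It called 0.0% of the 11521 genes tested, and EHMT2 itself missed the threshold (log2 change -1.93, SE 0.36, adjusted p = 0.0636). The lowest adjusted p among the 36 was that of FANCI, 0.124, with a log2 change of -0.88 (SE 0.27). At an unadjusted p under 0.05 there were 6 genes, all lower: FANCI, BRCA1, RBBP8, FANCG, CHEK1 and FANCD2, against 11.1% of all genes lower at that level. In either direction 26.6% of all genes reached that level. The number among the 36 was 1 with libraries scaled to the same sum (23.6% of all genes in either direction). It was 10, all lower, with quantile normalisation (27.2% of all genes in either direction). The estimates were below 0 for 26 of the 36 genes, with a median of -0.45 against 0.06 over all genes tested. Only 2 residual degrees of freedom remain in that fit, and the unequal line difference across treatments is its error.

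When the fit was limited to the 4 siRNA libraries, 18 of the 36 genes fell with EHMT2 siRNA and none rose. Of all genes 18.7% fell and 23.8% rose there, and the fit has 1 residual degree of freedom. The log2 change of FANCG was -1.07 (SE 0.13) at an adjusted p of 0.00169. That of FANCD2 was -1.07 (SE 0.14) at 0.00236, that of FANCI -0.88 (SE 0.12) at 0.00257 and that of RBBP8 -0.82 (SE 0.11) at 0.00263. The other 14 had log2 changes from -0.89 (RAD54B) to -0.54 (FANCB). Leaving out either untransfected library from the 6-library fit also gave 18, since the lone library left is then fitted exactly. By role, 4 of 6 break-end genes fell (BRCA1, BARD1, RBBP8, BRIP1), as did 4 of 9 strand exchange genes (RAD54L, RAD54B, XRCC3, RAD51AP1) and 4 of 8 core genes (FANCG, FANCA, FANCL, FANCB). Both members of the ID2 pair fell, 2 of 6 junction genes (EME1, BLM) and 2 of 5 checkpoint genes (CHEK1, TOPBP1). The nearest genes on the other side of the threshold were FANCC (log2 change 0.40, adjusted p = 0.0607), RAD50 (0.35) and ATR (0.37), all with positive estimates.

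The second comparison set resistant against parental cells, and the untransfected pair of libraries differed in direction from the pairs with siRNA. Without transfection the median log2 ratio of the 36 genes was 0.39, resistant over parental, against 0.07 for all genes, with 30 of 36 above 0 (56.3% of all genes). At least 1.5-fold higher were 13 genes (11.8% of all genes) and RBBP8 was the 1 lower (10.0% of all genes). With the libraries scaled to the same sum this median was 0.58, and that of all genes 0.28. With control siRNA the median was -0.33, against -0.015 for all genes, with 32 of 36 below 0 (51.9% of all genes) and 10 at least 1.5-fold lower (5.52% of all genes). With EHMT2 siRNA it was -0.43, against -0.048 for all genes, with 28 of 35 below 0 (55.0% of all genes). At least 1.5-fold lower were 10 (9.5% of all genes), and NBN was the 1 higher (715 of 11937 over all genes).

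RAD54L had the largest ratio without transfection, 1.37, and -0.45 with control siRNA. FANCA went from 1.12 to -0.99 and then to -1.34 with EHMT2 siRNA, the widest gap between untransfected and control siRNA cells among the 36. XRCC2 went from 1.19 to -0.53 and to -1.14. Opposite signs, above 0 untransfected and below 0 with control siRNA, were found for 30 of 36 genes, against 33.6% of all genes. Opposite and past 1.5-fold on each side were 5 genes (XRCC3, RAD54B, FANCA, FANCG and FANCD2), against 1.58% of all genes. Genes with nearly the same level in the lines were MUS81 (0.00, 0.04 and -0.11 in the order untransfected, control siRNA, EHMT2 siRNA) and RMI1 (0.02, -0.09 and -0.19).

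**Figure D4:**
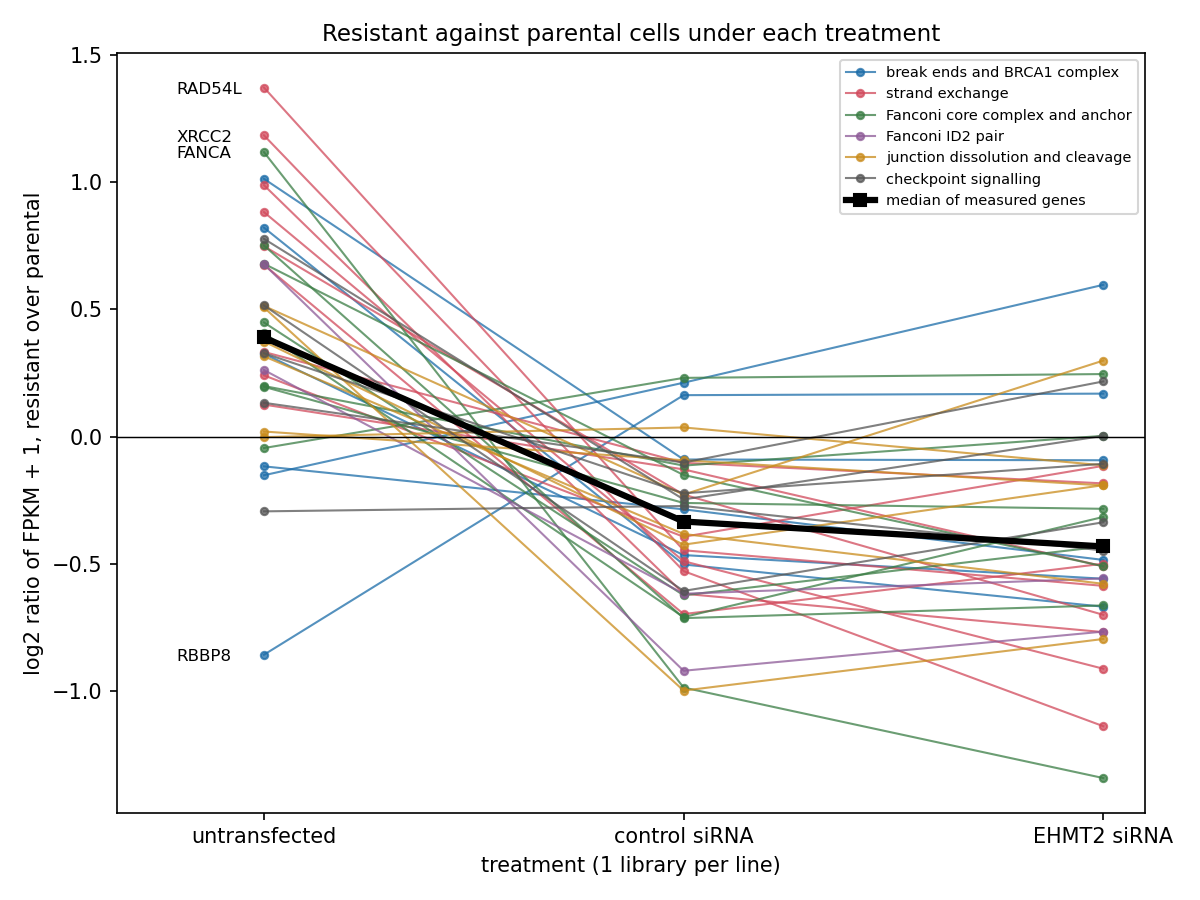
Log2 ratio of FPKM + 1, resistant over parental, under each treatment, 1 line per gene, with the median of the measured genes in black. The median is 0.39 untransfected, -0.33 with control siRNA and -0.43 with EHMT2 siRNA.

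The 6-library fit called none of the 36 genes for the line, nor any of the genes tested (0.0%), and none of the 36 reached an unadjusted p under 0.05, against 5.23% of all genes. In the 4 siRNA libraries 7 of the 36 were lower in resistant cells past the threshold and none higher, against 4.47% of all genes lower and 4.49% higher. These were FANCA (log2 change -1.17, SE 0.14, adjusted p = 0.0124), EME1 (-0.90), FANCD2 (-0.84), XRCC2 (-0.83), FANCG (-0.69), XRCC3 (-0.69) and FANCI (-0.59). The untransfected pair had positive log2 ratios for each of those 7, from 0.26 for FANCI to 1.19 for XRCC2. Leaving out either untransfected library from the 6-library fit also gave 7.

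The third comparison, control siRNA against no transfection, had medians of opposite sign in the lines. In parental cells the median log2 ratio was 0.41, with 28 of 36 genes above 0 (53.9% of all genes) and 12 at least 1.5-fold higher (6.95% of all genes). In resistant cells it was -0.50, with 33 of 36 below 0 (54.2% of all genes) and 13 at least 1.5-fold lower (13.2% of all genes). FANCG had the highest ratio in parental cells, 0.97, and XRCC2 the lowest in resistant cells, -1.30. In resistant cells 3 genes were above 0: RBBP8 at 0.93, NBN at 0.38 and ATR at 0.15. The 6-library fit called none of the 36, against 0.0434% of all genes, and only RMI2 and FANCE, both lower, reached an unadjusted p under 0.05, against 7.06% of all genes. Leaving out the parental untransfected library gave 11 calls (17.9% of all genes) and leaving out the resistant one gave 2 (3.58% of all genes). These pairs share their control siRNA and untransfected libraries with the other comparisons.

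Other genes of the same pathways were read as a separate list of 61, of which 60 were tested. In the 4 siRNA libraries 25 of them fell with EHMT2 siRNA (18.7% of all genes) and 7 rose (23.8% of all genes). In the 6-library fit none of the 60 passed. H2AFX, the histone variant marked at breaks, had the lowest mean ratio: it went from 58.6 to 29.4 FPKM in parental cells and from 41.6 to 18.6 in resistant cells. FAAP20, a partner of FANCA, had the highest, with a log2 change of 1.01 (SE 0.13, adjusted p = 0.00236) in the 4-library limma fit. EXO1, a resection nuclease, fell there by 1.01 on the log2 scale and RNF168, a ubiquitin ligase of break signalling, rose by 0.93. The median ratios of the list were -0.24 in parental and -0.31 in resistant cells, nearer to 0 than those of the 36 genes.

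End joining, the other route for broken ends, was read in 12 genes. LIG4, the ligase of classical end joining, went from 3.94 to 10.9 FPKM in parental cells and from 3.02 to 7.47 in resistant cells with EHMT2 siRNA. It rose in the 4-library fit, the 1 gene of the 12 to do so, with a log2 change of 1.17 (SE 0.14) at an adjusted p of 0.00192. POLQ, the polymerase of microhomology-mediated joining, fell by 0.74, and PAXX, RIF1 and LIG3 also fell. Of all genes 18.7% fell and 23.8% rose in that fit. The list had medians of -0.24 in parental and -0.22 in resistant cells.

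Genes of S phase and G2/M had medians of the same sign as the 36 genes in all 7 pairs of libraries. The 20 proliferation markers had median log2 ratios of -0.96 (parental) and -1.15 (resistant) with EHMT2 siRNA. For the line the medians were 0.69 untransfected, -0.45 with control siRNA and -0.66 with EHMT2 siRNA, and for control siRNA over untransfected they were 0.73 in parental and -0.54 in resistant cells. Their summed FPKM was highest in untransfected resistant cells (1278.3) and lowest in resistant cells with EHMT2 siRNA (343.0). TYMS alone gave 294.1 of the 1278.3. In parental cells with control siRNA, the next highest sum, it gave 92.4 of 1053.1. All 20 were below 0 in parental cells with EHMT2 siRNA and 19 in resistant cells, CCNE2 being the exception at 0.05. In the 4 siRNA libraries 18 of 20 fell with EHMT2 siRNA (18.7% of all genes), MCM5 by 2.07. The part of these genes in the values of the 36 was not tested.

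**Figure D5:**
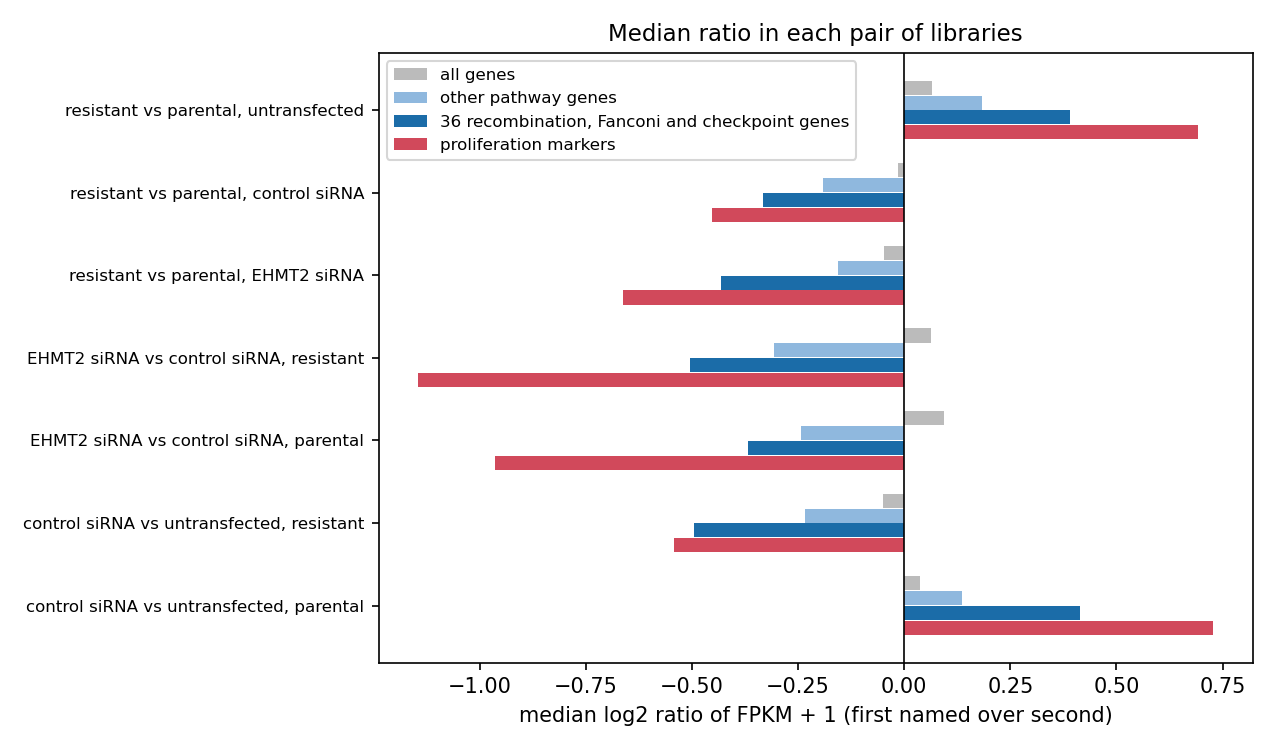
Median log2 ratio of FPKM + 1 in the 7 pairs of libraries for the 36 genes, the other pathway genes, the proliferation markers and all genes at 1 FPKM or more. The sign of the 36 genes matches that of the proliferation markers in each pair, with smaller sizes.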

How the data were processed

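RNA was sequenced from 6 HCT116 samples, 1 library per group. Per the submitters' processing notes, the tools included cutadapt 4.9, HISAT2 2.2.1, StringTie 2.1.1 and FastQC 0.12.1, with the build GRCh38. Settings and use of strand are not stated there, and read depth is unknown. The authors deposited 1 FPKM table per library (19957 rows), already scaled to length and library, so no count test was run. Values were taken as log2(FPKM + 1), which understates the change of low genes. The 11521 genes that reached 1 FPKM in 3 or more libraries were fitted in R 4.3.3 using limma 3.58.1. The model had line and treatment as additive terms and a trend of variance on level, and p-values were adjusted over all genes tested by Benjamini-Hochberg. With 1 library per group the error is the interaction of line and treatment, and nothing says that libraries come from separate cultures, so p-values measure only the spread among these libraries. Pairs of libraries were described by log2 ratios over genes that reached 1 FPKM in either library. Ratios past 1.5-fold were counted. Other lists were read the same way. Exon sharing came from GENCODE 29 and promoter windows from RefSeq (GRCh38.p14). The limma script was tested on simulated data.

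The members and the gene lists were chosen with earlier results of these data known. Named with all libraries were the members with the 6 lowest and 6 highest ratios common to both EHMT2 siRNA pairs, the 4 widest gaps between untransfected and control siRNA line ratios, those opposite in sign to their role group, and those passing a fit. From other lists, up to 4 passing genes and the highest and lowest mean ratio were named. Chromosome 18 genes were chosen after values were seen. Alternatives were a pseudocount of 0.1, no filter, a filter at 5 FPKM, equal library sums, quantile normalisation, no trend, 2-fold calls, median-centred ratios, the 4-library fits and leaving out each library. Members sharing under 25% of exonic bases were added after seeing the data.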

Additional observations from a re-analysis of the deposited data

Results flagged for a closer look

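Resistant over parental log2 ratios lay on opposite sides of 0, past 1.5-fold each way, in untransfected and control siRNA cells for 5 genes. With 1 library in each group these differences were not tested. XRCC3 was at 0.99 untransfected and -0.62 with control siRNA, RAD54B at 0.68 and -0.70, and FANCA at 1.12 and -0.99. FANCG was at 0.75 and -0.71 and FANCD2 at 0.68 and -0.92.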

How the results depend on the processing

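Beyond line, libraries could not be paired, because each group holds a single library and the groups share only the replicate number 1. Line is a term of each fit, so treatments were compared within lines. For EHMT2 siRNA the 6-library limma fit called 0 of the 36 genes, the 4 siRNA libraries called 18, and leaving out each library in turn gave 0 to 18, with 18 when either untransfected library was left out. For the line the count was 0 in 6 libraries, 7 in the 4 siRNA libraries and 0 to 7 leaving out 1. For control siRNA against untransfected it was 0 in 6 libraries and 0 without the EHMT2 siRNA libraries. This count moved when either untransfected library was left out. The untransfected side is then a single library, fitted exactly, so calls there do not measure its spread. The median log2 change of the 36 genes was -0.45 without the parental and 0.39 without the resistant untransfected library. At 2-fold instead of 1.5-fold, 4 members were higher in the untransfected line pair (408 of 11731 genes higher, 460 lower). With control siRNA the line pair gave 0 (185 of 11557 genes higher, 111 lower). With EHMT2 siRNA it gave 2 lower (184 of 11937 genes higher, 185 lower). The EHMT2 siRNA pairs gave 2 lower in parental cells (894 of 11948 genes higher, 419 lower). They gave 1 lower in resistant cells (613 of 11750 genes higher, 475 lower). Control siRNA against untransfected gave 0 in parental cells (111 of 11631 genes higher, 242 lower). It gave 4 lower in resistant cells (503 of 11666 genes higher, 451 lower). The EHMT2 siRNA line pair, with 11 of 35 members past 1.5-fold (1849 of 11937 genes), gave 17 of 35 with a pseudocount of 0.1. Among members at 5 FPKM or more it gave 6 of 20. The share of all genes was not counted in these alternative settings. The median log2 ratio with EHMT2 siRNA in parental cells moved from -0.37 to -0.70 among members at 5 FPKM or more. The other counts past 1.5-fold or at an adjusted p of 0.05, and the other medians, stayed within 1.5 times and kept their sign. Scaling to the same sum moved the median of all genes from 0.07 to 0.28 in the untransfected line pair, from 0.09 to 0.20 with EHMT2 siRNA in parental cells and from 0.04 to 0.20 with control siRNA over untransfected there. Depth is unknown, so counting error could not be set beside genes of low FPKM such as FANCB and RAD51D.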
